A study of Mus musculus with 12 samples.

Results

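The 40 genes described here make and seal new DNA, supply its nucleotides or dress it with chromatin, and were followed as one module through muscle cell differentiation. They were chosen by name from a list of DNA synthesis and nucleotide supply genes, with no expression value in the rule. Earlier results of these data were known when the choice was made. All 40 were listed in each of the 12 tables, out of 16288 genes listed in any table, and all 40 passed the filter on low counts that left 12545 genes for testing. RNA was sequenced from C2C12, an immortalized mouse myoblast line that fuses into myotubes in culture, so the results describe 1 line grown in dishes and not muscle tissue. Cells received the vehicle DMSO or PFI-3 at 50 uM, which occupies bromodomains, the acetyl-lysine pockets, of the SWI/SNF ATPases BRM and BRG1 and of polybromo (PB1). The 6 groups were DMSO and PFI-3 in growth medium (GM), at 24 h of differentiation (DM 24h) and at 48 h of differentiation (DM 48h), with 2 libraries (A and B) each. Every group, controls included, was pretreated for 12 h. GM cells were harvested at the end of that pretreatment. Differentiating cells were then moved to low-serum medium with insulin, in which the vehicle or compound was renewed every 24 h. Exposure therefore lengthened with each stage, and a PFI-3 effect that differs between any of the 3 stages cannot be told apart from one that differs with length of exposure.

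The replicates are called biological duplicates in the labels, with nothing on how cultures were kept apart, so p-values measure the spread between these libraries. Expected counts summed to 12576374 to 13658352 per library, and the smallest count of any member was 12 (Dscc1 in a DM 48h DMSO library). Replicates lay farther apart in GM. Among genes averaging 50 counts or more, log2 of B over A had an SD of 0.387 in GM DMSO and 0.357 in GM PFI-3, and of 0.148 to 0.158 in the DM groups. Myocyte markers were near 0 in GM (6 genes, 5.8 to 11.5 summed CPM, which is the count scaled to a common library total) and reached 16370 to 16410 at DM 48h in DMSO, and the 5 myoblast markers were present at every stage. Of the marker sets for other cell types, endothelial genes summed to at most 1.8 CPM, leukocyte genes to at most 9.55, neuronal and glial genes to at most 2.78 and adipocyte genes to at most 0.21.

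DNA replication starts where the origin recognition complex loads helicases, which CDC45 and the GINS complex activate. Primase with polymerase alpha lays down primers, polymerases epsilon and delta extend them on the sliding clamp PCNA, and clamp loaders, single-strand binding proteins, the flap nuclease and the ligase complete the strands. Ribonucleotide reductase, thymidylate synthase and thymidine kinase supply the building blocks, while chromatin assembly factor and maintenance methylation follow the fork. Myoblasts leave the cell cycle as they differentiate, and many of these genes are textbook targets of E2F factors, which are repressed by the retinoblastoma family in cells that stop dividing.

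Promoter letters were searched because E2F control is the shared feature most often described for such genes. RefSeq windows from 250 bases before to 50 bases after a gene's start (GRCm38.p6, the mm10 assembly) were at hand for 32 of the 40 members, as 39 windows. Any of 4 E2F words (the word TTGGCGC, the word TTCCCGC, the word TTGCCGC and the word TTCGCGC, on either strand) stood in 23 of the 39 windows (59.0%), against 16.3% of the windows of all genes tested and 9.57% of all windows in the table. Without the 50 bases after the start the count was 15 of 39 (38.5%), against 13.5% and 7.89%. CCAAT stood in 21 of 39 (53.8%), against 37.8% and 37.4%. TTTGAA or TTCGAA, the words of the cell cycle homology region, stood in 6 of 39 (15.4%), against 13.8% and 19.2%. In the 38 windows at hand for further replication and nucleotide genes outside the module, the shares were 44.7% for an E2F word, 44.7% for CCAAT and 21.1% for the homology region words. An E2F word and CCAAT can share letters, since the reverse complement of TTGGCGC ends in CCAA. A match describes the letters and not a bound site. For view, 7 upstream stretches of 100 bases are shown for members that the results below turn on, with E2F words in capitals.
Pola1 (chrX:93632225-93632324, minus strand): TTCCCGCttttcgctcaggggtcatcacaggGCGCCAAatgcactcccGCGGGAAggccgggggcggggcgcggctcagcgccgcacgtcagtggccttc
Pola2 (chr19:5964207-5964306, minus strand): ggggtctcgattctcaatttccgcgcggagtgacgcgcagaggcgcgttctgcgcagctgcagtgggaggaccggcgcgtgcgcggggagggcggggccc
Rpa3 (chr6:8259142-8259241, minus strand): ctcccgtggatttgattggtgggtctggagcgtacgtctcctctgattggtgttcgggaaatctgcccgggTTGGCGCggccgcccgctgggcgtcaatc
Orc1 (chr4:108579354-108579453, plus strand): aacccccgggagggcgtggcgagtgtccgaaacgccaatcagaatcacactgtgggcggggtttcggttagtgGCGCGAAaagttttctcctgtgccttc
Rrm1 (chr7:102441595-102441694, plus strand): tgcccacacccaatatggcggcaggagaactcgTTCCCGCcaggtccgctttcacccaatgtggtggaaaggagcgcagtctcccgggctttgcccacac
Chaf1a (chr17:56040316-56040415, plus strand): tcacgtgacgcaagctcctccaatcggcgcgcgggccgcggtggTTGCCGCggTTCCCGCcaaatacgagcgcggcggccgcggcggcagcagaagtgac
Uhrf1 (chr17:56303237-56303336, plus strand): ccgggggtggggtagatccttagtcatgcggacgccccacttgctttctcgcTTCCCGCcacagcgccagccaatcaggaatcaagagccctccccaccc
Pola1 carries 3 such words in its stretch and Chaf1a carries 2. Rpa3, Orc1, Rrm1 and Uhrf1 carry 1 each, and the Pola2 stretch carries 0. At DM 48h the median log2 fold change with PFI-3 was 0.89 over the 21 genes with an E2F word in a window and 0.93 over the 11 without.

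Levels between genes are given as FPKM (fragments scaled by transcript length and depth), since CPM is not scaled for length. In proliferating DMSO cells the module ran from 336.7 FPKM for Rrm2, the regulated subunit of ribonucleotide reductase, to 6.60 for Dscc1, a subunit of an alternative clamp loader. Pcna (268 FPKM), Tk1 (144) and Uhrf1 (92.1) followed Rrm2, and Ung (9.57), Pola1 (10.3) and Orc1 (10.4) stood just above Dscc1. At DM 48h in DMSO, Pcna (61.7 FPKM) and Rrm2 (55.1) stayed at the top, and Orc1 (0.955) had become the lowest. Summed over the 40 members, the level in DMSO was 4999 and 4686 CPM in GM, 2991 and 2996 after 24 h and 1128 and 1160 after 48 h of differentiation. With PFI-3 the sums were 4371 and 4741, 2816 and 2782, and 2070 and 2046. The groups overlapped in GM, both PFI-3 libraries were the lower at DM 24h, and at DM 48h both PFI-3 libraries held more than both DMSO libraries.

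**Figure D1:**
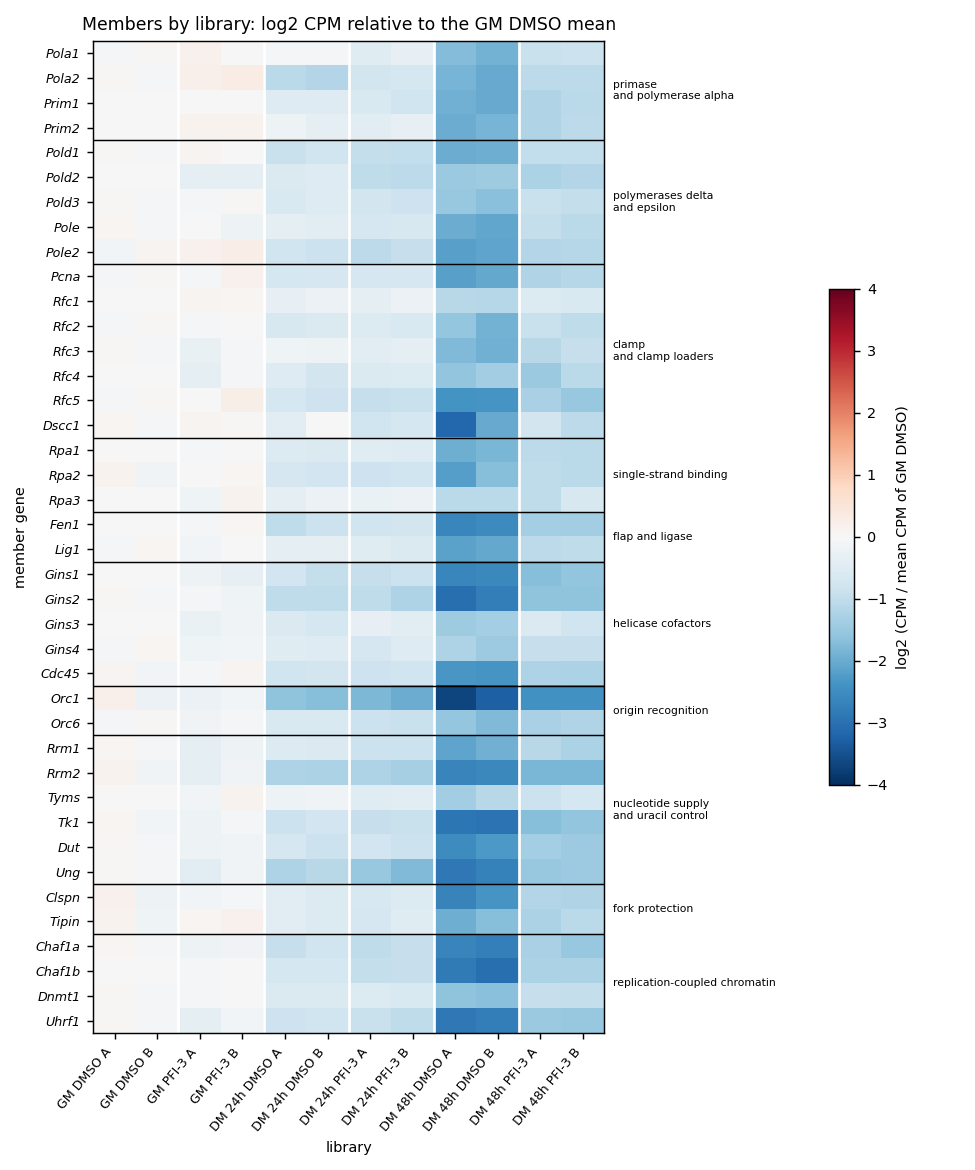
Each row is a member, grouped by role, and each column is a library; colour is log2 of CPM over the GM DMSO mean, blue below that mean and red above it. The DM 48h DMSO columns are the darkest blue in nearly every row, and the DM 48h PFI-3 columns are paler.

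The main difference lay at DM 48h. There 38 of 40 members were called higher with PFI-3 than with DMSO (edgeR, adjusted p under 0.05) and 0 lower, with 0 lower also at an unadjusted p under 0.05, by DESeq2 and by limma. Of all genes tested, 13.4% were called higher and 14.0% lower. The median log2 fold change was 0.91 over the members and 0.00 over all genes tested. For 39 members both PFI-3 libraries exceeded both DMSO libraries, an arrangement found in 35.4% of all genes tested. The exception was Rfc4. Leaving out 1 library left 34 to 36 members called, and 32 members were called under every alternative. On log2(FPKM + 1), limma called 2554 genes higher and 1356 lower, in place of 1682 and 1756, with 38 members still called higher.

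**Figure D2:**
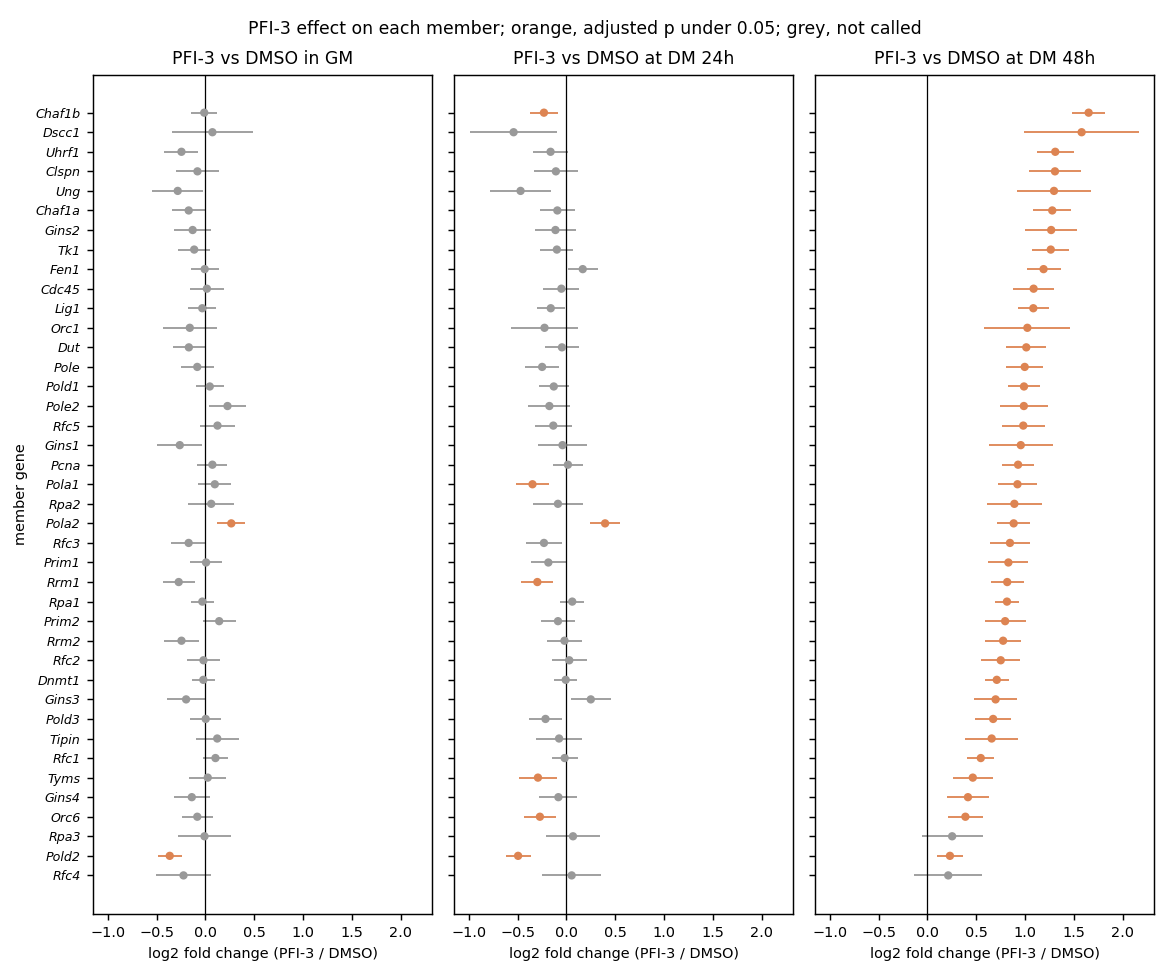
Log2 fold change of PFI-3 over DMSO (horizontal axis) for each member, with 95% intervals, one panel per stage; orange marks an adjusted p under 0.05. Right of 0 lie 15 of 40 points in GM and 8 at DM 24h, with Pola2 to the right and Pold2 to the left in both. In the third panel all 40 members lie right of 0, the lowest being Rfc4 at 0.21.

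In the primase and polymerase alpha complex, 4 of 4 members were called higher at DM 48h with a median log2 fold change of 0.86. Pola1 in DMSO was at 54.6 and 58.5 CPM (A and B) in GM, 55.2 and 54.0 after 24 h and 17.1 and 15.4 after 48 h. With PFI-3, Pola1 was at 64.2 and 56.8, then 40.4 and 45.4, then 30.4 and 31.1 CPM. For Pola1, the catalytic subunit, the DM 24h libraries overlapped the GM libraries in DMSO and the DM 48h libraries were lower. At DM 48h the PFI-3 effect was 0.92 (SE 0.10, adjusted p = 4.3e-05), and the groups did not overlap. Pola2 in DMSO was at 101 and 94.0 CPM (A and B) in GM, 46.7 and 42.9 after 24 h and 26.8 and 24.1 after 48 h. With PFI-3, Pola2 was at 113 and 121, then 58.1 and 59.8, then 46.8 and 47.0 CPM. Pola2, the regulatory subunit, was higher with PFI-3 in every same-stage comparison, without overlap. Its log2 fold changes were 0.26 (SE 0.074, adjusted p = 0.0402) in GM, then 0.40 (SE 0.08, adjusted p = 0.00417) and 0.88 (SE 0.085, adjusted p = 1.63e-05) at the later stages. The GM call was lost in 6 alternatives, among them DESeq2 and the fits without GM DMSO B or GM PFI-3 B, and the DM 24h call without DM 24h DMSO B. The primase subunits Prim1 and Prim2, which make the RNA primer, were higher at DM 48h by 0.83 (SE 0.10, adjusted p = 0.000111) and 0.80 (SE 0.11, adjusted p = 0.00018).

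All 5 members that are subunits of the replicative polymerases delta and epsilon were called higher at DM 48h, with a median of 0.99. Pold4, a polymerase delta subunit outside the module, was called lower there, as given below. Pole in DMSO was at 127 and 113 CPM (A and B) in GM, 92.0 and 88.7 after 24 h and 30.5 and 28.6 after 48 h. With PFI-3, Pole was at 121 and 105, then 75.5 and 76.5, then 61.5 and 56.4 CPM. Pole, the leading-strand catalytic subunit, was close to 2-fold higher at the last stage (1.00, SE 0.096, adjusted p = 1.56e-05), and its groups did not overlap there. Its partner Pole2 (0.99, SE 0.13, adjusted p = 0.000131) and the delta catalytic subunit Pold1 (0.99, SE 0.086, adjusted p = 6.93e-06) were also called higher. Pold2 in DMSO was at 115 and 112 CPM (A and B) in GM, 76.6 and 79.5 after 24 h and 40.9 and 42.5 after 48 h. With PFI-3, Pold2 was at 87.2 and 89.1, then 55.8 and 54.9, then 47.7 and 50.2 CPM. Pold2, an accessory subunit of polymerase delta, went the other way at the early stages. The shift was -0.37 (SE 0.063, adjusted p = 0.00416) in GM and -0.50 (SE 0.065, adjusted p = 0.000248) a day into differentiation, and then 0.23 (SE 0.068, adjusted p = 0.0255) at DM 48h, with separate groups each time. The DM 48h call was lost when any 1 of the 4 libraries was left out and by DESeq2. The DM 24h call stood in every alternative, and the GM call was lost in the fits of the GM libraries alone. Pold3, a further accessory subunit, was higher at DM 48h by 0.67 (SE 0.093, adjusted p = 0.000222).

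Of the clamp and clamp loader genes, 6 of 7 were called higher at DM 48h. Pcna in DMSO was at 320.0 and 338 CPM (A and B) in GM, 202 and 205 after 24 h and 73.0 and 79.6 after 48 h. With PFI-3, Pcna was at 317 and 374, then 206 and 206, then 142 and 148 CPM. Pcna, the sliding clamp, was not called in GM or at DM 24h, and the groups separated at DM 48h, by 0.93 (SE 0.083, adjusted p = 8.98e-06) on the log2 scale. Rfc1 in DMSO was at 109 and 110.0 CPM (A and B) in GM, 87.5 and 92.3 after 24 h and 51.1 and 49.5 after 48 h. With PFI-3, Rfc1 was at 119 and 116, then 84.8 and 92.7, then 75.3 and 71.8 CPM. Rfc1 is the large clamp loader subunit. Its effect at DM 48h was 0.55 (SE 0.071, adjusted p = 0.000146), again without overlap. Rfc4 in DMSO was at 20.0 and 19.2 CPM (A and B) in GM, 13.8 and 11.8 after 24 h and 6.51 and 7.53 after 48 h. With PFI-3, Rfc4 was at 15.0 and 18.5, then 13.2 and 13.3, then 7.05 and 9.21 CPM. Rfc4 was not called at DM 48h (0.21, SE 0.18, adjusted p = 0.416), and its groups overlapped. Counts for Rfc4 were low, and it also shares exon bases with another gene. The small subunits Rfc2 (0.75, SE 0.10, adjusted p = 0.00018), Rfc3 (0.85, SE 0.11, adjusted p = 0.000106) and Rfc5 (0.98, SE 0.11, adjusted p = 5.53e-05) were called higher. Dscc1 in DMSO was at 9.01 and 8.19 CPM (A and B) in GM, 6.42 and 8.44 after 24 h and 0.976 and 2.13 after 48 h. With PFI-3, Dscc1 was at 9.24 and 8.83, then 4.95 and 5.26, then 5.17 and 4.14 CPM. Dscc1 had the second highest fold change of the module at DM 48h, 1.58 (SE 0.30, adjusted p = 0.00209), on the fewest counts. Its DMSO libraries there differed from each other by more than 2-fold, which the wide error carries.

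**Figure D3:**
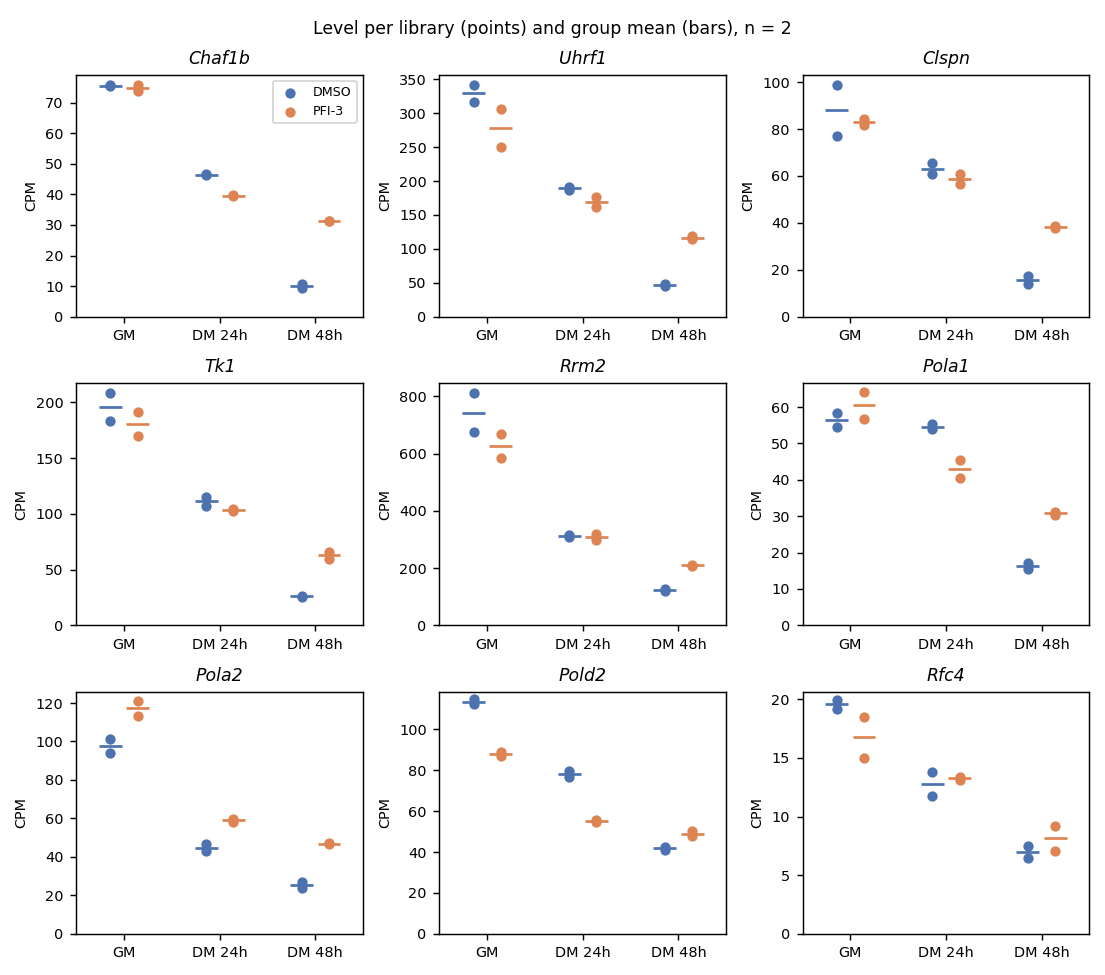
CPM (vertical axes, from 0) in each library for 9 members at the 3 stages; points are libraries and bars group means. At DM 48h the PFI-3 points lie above the DMSO points in all panels but that of Rfc4, where they overlap, and in GM and at DM 24h PFI-3 lies below DMSO without overlap for Pold2 and Uhrf1.

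Among the single-strand binding subunits, 2 of 3 were called. Rpa1 in DMSO was at 274 and 276 CPM (A and B) in GM, 186 and 185 after 24 h and 71.6 and 78.0 after 48 h. With PFI-3, Rpa1 was at 262 and 275, then 195 and 192, then 132 and 131 CPM. Rpa1, the large subunit, was called higher at DM 48h (0.82, SE 0.064, adjusted p = 3.56e-06) with no overlap, as was Rpa2 (0.89, SE 0.14, adjusted p = 0.00069). Rpa3, the smallest subunit, was at 9.03 and 9.08 CPM in DMSO and 9.32 and 12.3 with PFI-3 at DM 48h. Its log2 fold change was 0.25 (SE 0.16, adjusted p = 0.273), not called, though the PFI-3 libraries were the higher. The strand-finishing enzymes shifted more. Fen1 in DMSO was at 109.9 and 107 CPM (A and B) in GM, 53.7 and 59.4 after 24 h and 17.8 and 18.6 after 48 h. With PFI-3, Fen1 was at 102 and 114, then 62.3 and 64.7, then 41.9 and 41.1 CPM. Fen1, the flap endonuclease, was higher at DM 48h by 1.19 (SE 0.089, adjusted p = 2.35e-06), with the groups well apart. Lig1 in DMSO was at 126 and 139.6 CPM (A and B) in GM, 103 and 102 after 24 h and 29.9 and 32.0 after 48 h. With PFI-3, Lig1 was at 124 and 136, then 94.0 and 89.4, then 65.0 and 66.2 CPM. Lig1, which seals Okazaki fragments, was higher by 1.08 (SE 0.082, adjusted p = 2.47e-06), again without overlap.

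Helicase cofactors and origin genes were called higher at DM 48h in 5 of 5 and 2 of 2 cases. Cdc45 in DMSO was at 76.4 and 65.6 CPM (A and B) in GM, 40.5 and 42.8 after 24 h and 14.1 and 13.9 after 48 h. With PFI-3, Cdc45 was at 66.8 and 76.7, then 39.8 and 40.6, then 29.9 and 29.6 CPM. Cdc45, the helicase activator, was higher at DM 48h (1.09, SE 0.11, adjusted p = 2e-05), while the treatments overlapped in GM and at DM 24h. Gins1 in DMSO was at 17.6 and 18.3 CPM (A and B) in GM, 10.5 and 9.29 after 24 h and 2.93 and 3.03 after 48 h. With PFI-3, Gins1 was at 15.6 and 14.3, then 9.44 and 9.84, then 5.56 and 6.01 CPM. Gins1, a subunit of GINS, was higher at DM 48h by 0.96 (SE 0.17, adjusted p = 0.00116) on few counts, and its groups were separate. Within GINS the range ran from Gins2 (1.27, SE 0.13, adjusted p = 3.18e-05) through Gins3 (0.70, SE 0.11, adjusted p = 0.000748) to Gins4 (0.42, SE 0.11, adjusted p = 0.0136). The Gins4 call was lost by DESeq2 and without either PFI-3 library or DMSO B. Orc1 in DMSO was at 36.8 and 27.2 CPM (A and B) in GM, 10.5 and 9.75 after 24 h and 2.52 and 3.35 after 48 h. With PFI-3, Orc1 was at 27.5 and 29.7, then 9.13 and 8.16, then 5.95 and 6.01 CPM. Orc1, the cell-cycle regulated origin subunit, had the steepest DMSO fall from GM to DM 24h of all members. At DM 48h it was higher with PFI-3 by 1.02 (SE 0.23, adjusted p = 0.00516), and this call was lost without DM 48h DMSO A. Orc6 in DMSO was at 90.2 and 98.1 CPM (A and B) in GM, 61.8 and 62.1 after 24 h and 32.5 and 28.0 after 48 h. With PFI-3, Orc6 was at 85.8 and 91.9, then 51.7 and 50.8, then 38.1 and 41.0 CPM. Orc6 moved less: its DM 48h effect was 0.39 (SE 0.09, adjusted p = 0.00697), lost without either B library of that stage. At DM 24h Orc6 was lower with PFI-3, with a log2 shift of -0.27 (SE 0.084, adjusted p = 0.0343), a call lost without any 1 of the 4 libraries.

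All 6 nucleotide supply and uracil control genes were called higher at DM 48h, with a median of 0.92. Rrm1 in DMSO was at 391 and 352 CPM (A and B) in GM, 254 and 249.8 after 24 h and 86.5 and 97.7 after 48 h. With PFI-3, Rrm1 was at 293 and 322, then 204 and 206, then 172 and 153 CPM. Rrm1, the large reductase subunit, was lower with PFI-3 at DM 24h, with a log2 shift of -0.30 (SE 0.084, adjusted p = 0.023), a call lost without any 1 of the 4 libraries. By DM 48h it was the higher, by 0.82 (SE 0.087, adjusted p = 3.24e-05). Rrm2 in DMSO was at 812 and 674 CPM (A and B) in GM, 316 and 309 after 24 h and 119.8 and 125 after 48 h. With PFI-3, Rrm2 was at 585 and 668, then 319 and 298, then 211 and 208 CPM. Rrm2 was below its GM range by DM 24h in both treatments, and at DM 48h PFI-3 was the higher by 0.78 (SE 0.093, adjusted p = 7.92e-05), without overlap. Tk1 in DMSO was at 208 and 183 CPM (A and B) in GM, 108 and 115 after 24 h and 26.7 and 25.5 after 48 h. With PFI-3, Tk1 was at 169.9 and 191, then 103 and 105, then 59.7 and 65.7 CPM. Tk1, thymidine kinase of the salvage route, was higher by 1.26 (SE 0.097, adjusted p = 2.84e-06) at DM 48h, and its groups overlapped in GM. Tyms in DMSO was at 113 and 112 CPM (A and B) in GM, 97.3 and 101 after 24 h and 43.3 and 51.5 after 48 h. With PFI-3, Tyms was at 104 and 124, then 80.8 and 81.3, then 62.2 and 68.6 CPM. Tyms, thymidylate synthase, fell and differed less: its DM 48h effect was 0.46 (SE 0.10, adjusted p = 0.0055), lost without DMSO A or PFI-3 B. Tyms is the 1 member with fractional expected counts, as arise when reads are shared with another locus. Dut in DMSO was at 76.2 and 71.6 CPM (A and B) in GM, 45.9 and 40.6 after 24 h and 12.8 and 14.9 after 48 h. With PFI-3, Dut was at 64.4 and 67.0, then 43.1 and 40.6, then 29.0 and 27.0 CPM. Dut, which removes dUTP, was higher at DM 48h by 1.01 (SE 0.10, adjusted p = 2.65e-05), with groups apart. Ung in DMSO was at 19.1 and 17.5 CPM (A and B) in GM, 7.85 and 8.51 after 24 h and 2.52 and 2.78 after 48 h. With PFI-3, Ung was at 13.5 and 16.5, then 6.39 and 5.42, then 6.34 and 6.71 CPM. Ung, which excises uracil from DNA, was higher by 1.30 (SE 0.19, adjusted p = 0.000358) at DM 48h. With PFI-3 its DM 48h libraries reached the DM 24h level and overlapped it.

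The 4 replication-coupled chromatin genes had the highest median of any role at DM 48h (1.29), and all were called higher, as were both fork protection genes. Clspn in DMSO was at 99.0 and 76.9 CPM (A and B) in GM, 65.6 and 60.7 after 24 h and 13.8 and 17.2 after 48 h. With PFI-3, Clspn was at 81.8 and 84.3, then 56.5 and 60.7, then 38.8 and 37.9 CPM. Clspn, the checkpoint mediator claspin, was higher by 1.31 (SE 0.14, adjusted p = 2.66e-05) with no overlap, and its partner in the fork protection group, Tipin, by 0.66 (SE 0.14, adjusted p = 0.00384), lost without DMSO A. Chaf1a in DMSO was at 157 and 140.2 CPM (A and B) in GM, 77.6 and 84.7 after 24 h and 23.7 and 22.2 after 48 h. With PFI-3, Chaf1a was at 128 and 136, then 74.0 and 78.2, then 60.0 and 51.5 CPM. Chaf1a, the large subunit of chromatin assembly factor 1, was higher by 1.28 (SE 0.10, adjusted p = 3.51e-06). Chaf1b in DMSO was at 75.3 and 75.7 CPM (A and B) in GM, 46.4 and 46.6 after 24 h and 10.6 and 9.24 after 48 h. With PFI-3, Chaf1b was at 73.8 and 75.9, then 39.4 and 39.8, then 31.2 and 31.1 CPM. Chaf1b, the partner subunit at chr16:93883900-93906115 of GRCm38.p6, had the highest fold change of all members (1.65, SE 0.087, adjusted p = 2.96e-07), and its replicates agreed closely. At DM 24h Chaf1b was lower, with a log2 shift of -0.23 (SE 0.072, adjusted p = 0.0364), a call lost without any 1 of the 4 libraries. Dnmt1 in DMSO was at 408 and 386 CPM (A and B) in GM, 266 and 269 after 24 h and 129 and 125 after 48 h. With PFI-3, Dnmt1 was at 384 and 398, then 274 and 258, then 209.7 and 206 CPM. Dnmt1, the maintenance methyltransferase, was higher at DM 48h by 0.71 (SE 0.062, adjusted p = 7.26e-06). Uhrf1 in DMSO was at 342 and 317 CPM (A and B) in GM, 186 and 192 after 24 h and 45.8 and 48.4 after 48 h. With PFI-3, Uhrf1 was at 250.1 and 306, then 176 and 162, then 119 and 114 CPM. Uhrf1, which brings DNMT1 to hemimethylated DNA, was higher by 1.31 (SE 0.098, adjusted p = 2.35e-06), and its groups did not overlap at DM 48h.

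In GM and at DM 24h few members were called between treatments. In GM 1 member was called higher (Pola2) and 1 lower (Pold2), against 5.46% and 6.15% of all genes tested, and 23 members (57.5%) had overlapping groups, close to the 54.6% of all genes tested. The median log2 fold change was -0.03 by edgeR and 0.07 by limma on log2(FPKM + 1), so its sign depends on the scaling. Over all genes limma called 1057 higher and 347 lower in GM, in place of 685 and 771. With 1 GM library left out, the members' median by edgeR ran from -0.087 to -0.004. At DM 24h 1 member was called higher (Pola2) and 6 lower (Pola1, Pold2, Orc6, Rrm1, Tyms and Chaf1b), against 12.2% and 11.4% of all genes tested. The median was -0.10, the largest drop Dscc1 at -0.54 (SE 0.23, adjusted p = 0.109), not called. The log2 fold change was above 0 for 8 of 40 members, against 6248 of the 12545 genes tested, and for 13 members by limma on log2(FPKM + 1). For 21 members both PFI-3 libraries were the lower and for 5 the higher, arrangements found in 35.2% and 35.3% of all genes tested, and 14 members overlapped, where 29.5% of all genes did. With any 1 library of that stage left out, fewer lower calls were made, among the members and over all genes alike. The members' median then ran from -0.127 to -0.089. Pold2 was the 1 lower call to pass every alternative. Fitted on the DM 24h libraries alone, 13 members were called lower and 3 higher, against 22.9% and 23.5% of the 12016 genes tested in that fit. Over all genes, limma on log2(FPKM + 1) called 1863 higher and 1143 lower at DM 24h, in place of 1533 and 1433.

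In DMSO the members fell from stage to stage, as the medium and the time in culture changed with differentiation. From GM to DM 24h in DMSO 35 members fell and 0 rose, where 30.0% and 30.6% of all genes tested were called lower and higher, with a median log2 change of -0.61. Orc1 fell furthest (-1.66, SE 0.16, adjusted p = 2.32e-06), then Rrm2 (-1.25, SE 0.091, adjusted p = 2.67e-07) and Ung (-1.16, SE 0.14, adjusted p = 2.5e-05). Pola1 (-0.05, SE 0.087, adjusted p = 0.63), Rfc3, Dscc1, Rpa3 and Tyms were not called. From DM 24h to DM 48h in DMSO all 40 fell, in every alternative, against 23.9% lower and 24.2% higher of all genes tested. The median log2 change was -1.45, and the range ran from Dscc1 (-2.25, SE 0.28, adjusted p = 3.71e-05) and Chaf1b (-2.23, SE 0.085, adjusted p = 1.48e-09) to Gins3 (-0.75, SE 0.11, adjusted p = 0.000186). Counts of 0 higher were also 0 at an unadjusted p under 0.05, by DESeq2 and by limma, in both steps. The median member was at 65.5% of its GM DMSO level at DM 24h and at 25.1% at DM 48h.

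With PFI-3 the members also fell in both steps. From GM to DM 24h 37 members fell and 0 rose, against 28.2% and 32.1% of all genes tested, with a median log2 change of -0.70. The 3 not called were Rfc4, Rpa3 and Gins3. From DM 24h to DM 48h 31 fell and 0 rose, against 14.2% and 13.1%, with a median of -0.44. The count of 0 higher in each step held at an unadjusted p under 0.05, by DESeq2 and by limma. Pold1, Pold2, Pold3, Pole2, Dscc1, Rpa2, Gins3, Orc1 and Ung did not pass the test in the second step. DESeq2 called 24 lower there, against 8.62% of all genes tested, and limma on log2(FPKM + 1) called 34, against 15.9%. The number thus moves with the method. With 1 library left out, fewer were called lower among the members and over all genes, with members' medians from -0.444 to -0.417. At DM 48h the median member with PFI-3 was at 44.7% of its GM DMSO level. For 37 members both PFI-3 libraries at DM 48h lay below the DM 24h and above the DM 48h DMSO libraries. That arrangement was found in 15.4% of all genes tested, and in 39.0% of the 4950 genes whose DMSO libraries fell between those stages without overlap. The exceptions were Pola2, Gins3 and Rfc4, of which Pola2 exceeded both DM 24h DMSO libraries, Gins3 overlapped them and Rfc4 overlapped the DM 48h DMSO libraries.

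**Figure D4:**
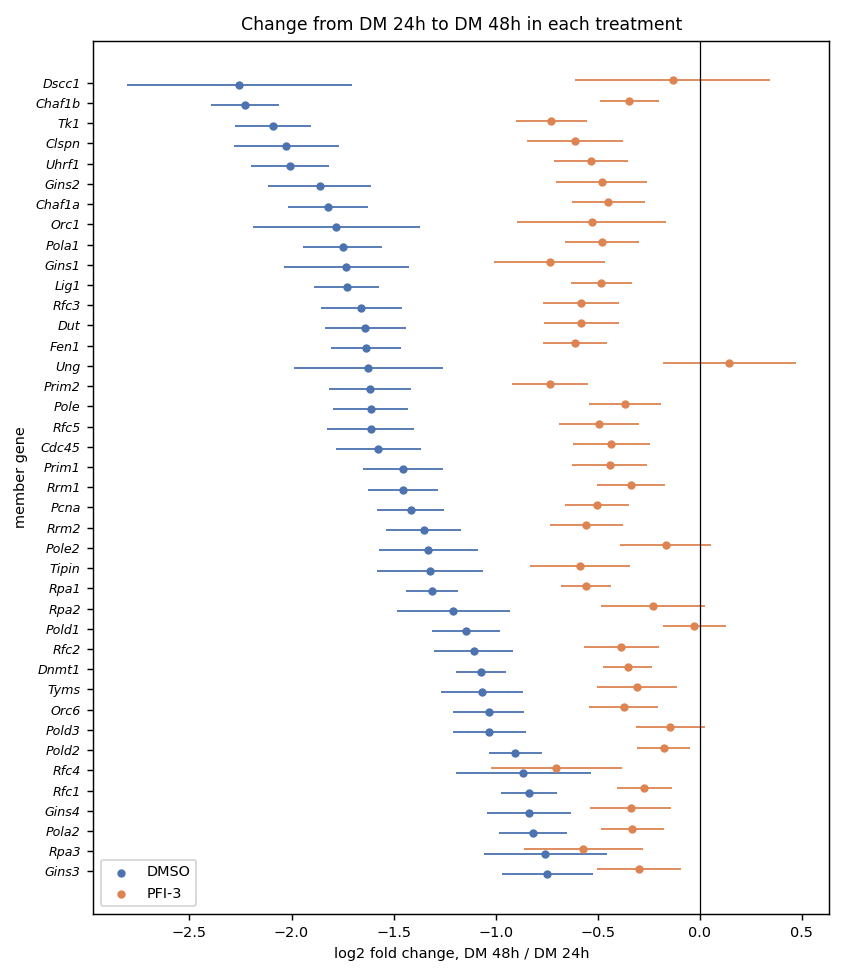
Log2 change from DM 24h to DM 48h (horizontal axis) for each member in DMSO (blue) and PFI-3 (orange), with 95% intervals. The DMSO points lie left of the PFI-3 points for all 40 members, and the intervals overlap for Rfc4 and Rpa3.

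The difference between the effects was tested directly. The PFI-3 effect was higher at DM 48h than at DM 24h for 37 members and lower for 0, against 7.12% and 4.97% of all genes tested. The median difference was 1.02 on the log2 scale, and it was largest for Dscc1 (2.12, SE 0.38, adjusted p = 0.00335) and Chaf1b (1.88, SE 0.11, adjusted p = 8.7e-06). Rfc4 (0.16, SE 0.24, adjusted p = 0.717), Rpa3 (0.19, SE 0.21, adjusted p = 0.629) and Gins3 (0.45, SE 0.16, adjusted p = 0.0849) were not called. Against GM the effect at DM 48h was higher for 36 members and lower for 0, where 8.25% and 6.29% of all genes were called, with a median of 0.88. Rfc4, Rpa3, Tyms (0.44, SE 0.14, adjusted p = 0.057) and Tipin (0.54, SE 0.18, adjusted p = 0.0652) were not called. Between DM 24h and GM 0 members were called in either direction by edgeR, DESeq2 or limma, against 1.78% higher and 1.59% lower of all genes. At an unadjusted p under 0.05, 1 member was higher and 4 were lower. Over all genes that comparison gave 223 higher and 200 lower by edgeR, and 196 and 399 by limma on log2(FPKM + 1). In each of the other 2 comparisons the count of 0 lower was also 0 at an unadjusted p under 0.05, by DESeq2 and by limma.

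A list of 42 further replication and nucleotide genes, not part of the module, gave 30 higher and 1 lower at DM 48h. Of all genes tested, 13.4% were called higher and 14.0% lower there. The median log2 fold change over the 42 was 0.61. Licensing and initiation genes were among those called higher, with Cdc6 at 1.76 (SE 0.20, adjusted p = 4.52e-05), Mcm10 at 1.48 (SE 0.16, adjusted p = 3.98e-05), Cdt1, the licensing factor, at 1.46 (SE 0.10, adjusted p = 2.04e-06) and its inhibitor Gmnn at 1.43 (SE 0.17, adjusted p = 8.99e-05). Pold4, the smallest subunit of polymerase delta, was the 1 gene called lower, at -1.13 (SE 0.094, adjusted p = 4.84e-06). It was also the exception over time, since in DMSO it rose from 58.1 and 62.4 CPM at DM 24h to 110.7 and 117 at DM 48h. With PFI-3 it stood at 39.2 and 38.4 and then 50.9 and 53.2. Not called were, among others, Orc3 (-0.03, SE 0.066, adjusted p = 0.808), Rrm2b (-0.17, SE 0.12, adjusted p = 0.331), the reductase subunit used outside S phase, and Samhd1 (0.05, SE 0.083, adjusted p = 0.71), which degrades dNTPs. In GM 0 of the 42 were called higher and 3 lower, against 5.46% and 6.15% of all genes tested. At DM 24h 0 were called higher and 5 lower, against 12.2% and 11.4%.

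Marker genes were followed beside the module. The 6 proliferation markers (Mki67, Top2a, Ccna2, Ccnb1, Cdk1 and Plk1) were called higher with PFI-3 at DM 48h in 6 of 6 cases with a median log2 fold change of 0.95. Their summed level there was 618 to 624 CPM in DMSO and 1165 to 1176 with PFI-3. At DM 24h it was 2015 to 2045 in DMSO and 1581 to 1626 with PFI-3, and 3 of 6 were called lower. In GM it was 2059 to 2090 in DMSO and 1806 to 2068 with PFI-3. From GM to DM 24h in DMSO this sum changed little, with 4 of the 6 called lower and 1 higher, against 30.0% and 30.6% of all genes tested. Within the sum Mki67 rose, from 489 and 553 to 739 and 740 CPM, and the median log2 change of the 6 markers was -0.39. The members' sum fell over that step, from 4999 and 4686 to 2991 and 2996 CPM, with a median log2 change of -0.61. Between treatments, the 6 myocyte markers were called lower with PFI-3 in 6 of 6 cases at both DM stages. Their sums were 2363 to 2372 CPM in DMSO and 973 to 981 with PFI-3 at DM 24h, and 16370 to 16410 and 10780 to 11010 at DM 48h. Myoblast markers summed to 3292 to 3378 CPM in DMSO and 2773 to 2900 with PFI-3 at DM 48h, with 1 of 5 called lower. In GM 3 of the 5 were called lower with PFI-3, against 6.15% of all genes tested. In bulk RNA a change in the share of cells that replicate cannot be told apart from a change in RNA per cell, and the part of these marker shifts in the members' differences was not tested.

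**Figure D5:**
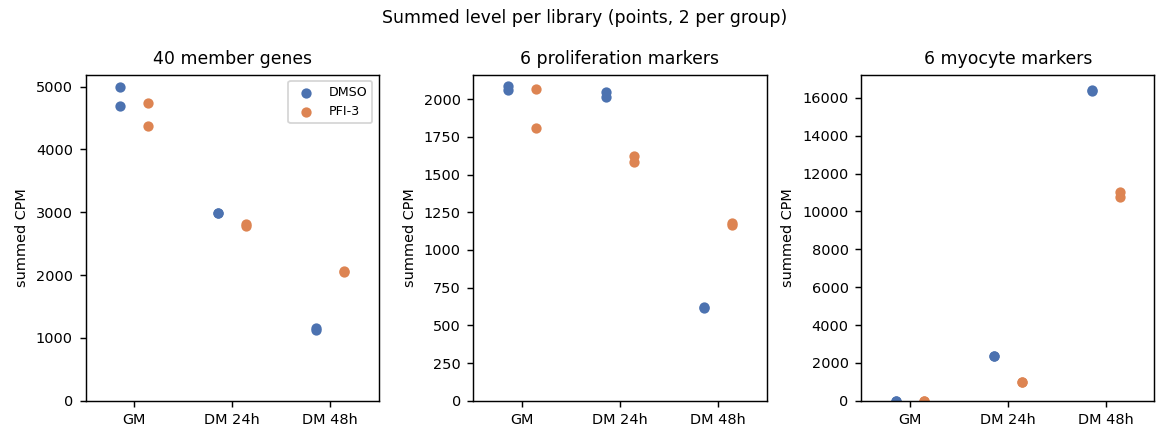
Summed CPM (vertical axes, from 0) in each library for the 40 members, 6 proliferation markers and 6 myocyte markers over the 3 stages. At DM 48h PFI-3 libraries lie above DMSO libraries for the members (2046 and 2070 against 1128 and 1160) and the proliferation markers, and below them for the myocyte markers.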

How the data were processed

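RNA sequencing of 12 C2C12 libraries was deposited as one unpooled table per library. Expected count and FPKM columns stand in each, per the file headers. The submitters' processing notes name HISAT, StringTie, Cufflinks, Bowtie, RSEM and DESeq2 and the build mm10, without versions or roles; whether counting used strand is not given in the sources used here. A gene missing from a table was taken as 0. Over the 6 groups there were 6963 cases of a gene listed in 1 replicate only. Of these cases, 97.0% had a count of at most 5. The authors' expected counts were rounded and tested with edgeR 4.0.16 (R 4.3.3): TMM scaling, filterByExpr, one 6-group model over all 12 libraries, the quasi-likelihood test and Benjamini-Hochberg adjustment over all 12545 genes tested. Genes under an adjusted p of 0.05 were called. SE is the absolute log2 fold change over the root of F, and 95% intervals are 1.96 SE either side. The deposited FPKM values gave levels between genes and the limma 3.58.1 alternatives, with a pseudocount of 1 or 0.1. DESeq2 1.42.0 and further fits were alternatives, and the scripts were checked on simulated counts. CPM uses TMM-scaled totals.

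Members, lists and tests were chosen with earlier results of these data known. All 40 members are reported by role, and the further replication genes by counts with values for some, with 1 result not reported here. Values in every library are given for genes fixed by name, for the highest and lowest fold change per comparison and for members not called at DM 48h. The exceptions are Rpa3, given per library at DM 48h only, and Gins3, given by fold changes only. Exon bases are shared with another gene, mostly on the opposite strand, for 14 members (Pole, Pole2, Rfc2, Rfc4, Rfc5, Rpa1, Fen1, Lig1, Gins2, Cdc45, Orc1, Orc6, Tk1 and Chaf1a), so their counts are less certain. The replicate letter was not a term in the main model. Same-letter deviations correlated across treatments at 0.51 in GM but at 0.04 and 0.05 in the later stages. Figures were drawn with Python 3.11.15 and matplotlib 3.10.9.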

Additional observations from a re-analysis of the deposited data

Results flagged for a closer look

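A direct test of stage differences singled out the response to PFI-3. It was higher at DM 48h than at DM 24h for 37 of 40 members, against 7.12% of all genes tested. Compared with GM, it was higher at DM 48h for 36 members, against 8.25%. Exposure lengthened from GM to DM 24h to DM 48h, so stage and exposure cannot be told apart in either comparison.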

How the results depend on the processing

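Of 20 counts of called members, 15 stayed within 1.5 times their value in every alternative, and no member's call changed direction. The 5 others concern GM and DM 24h. In GM the count higher went from 1 to 0 by DESeq2, without the filter on low counts and in fits of the GM libraries alone, and the count lower from 1 to 2 by DESeq2 and 0 in the fits of the GM libraries alone. Leaving out 1 library gave 0 to 1 higher and 1 to 4 lower. At DM 24h the count lower went from 6 to 3 by limma (either pseudocount) and to 13 in fits of the DM 24h libraries alone (22.9% of all genes there, against 11.4%), and the count higher from 1 to 3 in those fits. Both DM 24h counts also moved in fits without 1 library of that stage, where the members' median ran from -0.127 to -0.089. The count lower for the difference between DM 24h and GM moved without GM DMSO B or GM PFI-3 B. The cause was not tested. The E2F word count went from 23 windows to 15 without the bases after the start, by construction of the shorter window.

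With the replicate letter as a block over all libraries, 38 members were called higher at DM 48h, against 13.4% of all genes tested. At DM 24h 1 was called higher and 7 lower, against 12.4% and 11.8%. In GM 1 was called in each direction, against 5.52% higher and 6.35% lower. Fits of the compared libraries alone with the block gave 0 higher and 0 lower in GM, against 3.37% and 2.99% of all genes in that fit. At DM 24h they gave 3 higher and 13 lower, against 24.2% and 23.4%. Same-letter libraries went together across treatments in GM (correlation 0.51) but hardly at DM 24h (0.04) or DM 48h (0.05).

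With 2 libraries a group, small shifts cannot be settled at this depth, least of all for Dscc1, Orc1, Ung and Gins1, whose counts were lowest.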
